A study of Mus musculus with 367 samples.

Results

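The 51 genes described here encode the machinery with which a cell brings secreted proteins into the endoplasmic reticulum (ER), folds and modifies them there, and ships them on to the Golgi. They were chosen as a named list, with earlier results of these data known. All 51 were found among the 50600 genes of the expression tables. They fall into 9 chaperones and cochaperones, 6 disulfide isomerases and lectin chaperones, 9 procollagen-modifying proteins, 10 proteins of translocation and signal peptide removal, 13 proteins of vesicle coats, cargo receptors and retrieval, and 4 transcription factors. The cells came from dorsal skin wounds, 1.5 cm on each side, of Sm22-Cre;tdTomato mice of mixed background that were 3 to 8 weeks old when wounded. In these mice Cre is driven by the promoter of Tagln (also called Sm22), a gene of contractile cells, so that tdTomato stays on in every cell that once used this promoter, whatever the cell is at harvest. Viable tdTomato-high cells were sorted and captured singly on C1 microfluidic chips, which gave 367 cells from 7 captures (3 for post-wounding day 12 and 2 each for days 15 and 21). Every capture thus carried the transgenes and came from a wound. Tissue of 2 to 3 mice was used per time point, without a statement of which mice entered which capture. The p-values below therefore take captures as replicates and do not measure the spread between mice. These p-values and the standard errors are moderated by limma, the test used, which draws on the spread of the other genes tested.

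Levels are FPKM (fragments counted per length of transcript, scaled to the total of each cell) and are therefore comparable between genes per length. After filters on depth, gene number and mitochondrial share, 292 cells remained, 27 to 73 per capture, with a median of 900171 to 2236316 estimated fragments. Of these, 198 were matrix cells (Col1a1 of at least 1000 FPKM, Rgs5 under 100 and Tyrobp under 50), 57 were Rgs5-high cells (Rgs5 of at least 500, Tyrobp under 50), 26 were Tyrobp-high cells (Tyrobp of at least 500) and 11 met none of these gates. Markers that the gates did not use separated the kinds. The sum of 7 matrix fibroblast markers, Col1a2, Col3a1, Dcn, Lum, Pdgfra, Fbln2 and Mfap5, had a median of 26298 FPKM in matrix cells, 2186 in Rgs5-high and 18 in Tyrobp-high cells. The sum of 7 mural markers was 1024 FPKM in Rgs5-high cells against 0.085 and 0.27 in the others, and that of 7 myeloid markers 28594 FPKM in Tyrobp-high cells against 0 and 0. Markers of endothelial cells, keratinocytes, plasma cells and Schwann cells had median sums of at most 0.325 FPKM in any kind. However, 19 of the 57 Rgs5-high and 4 of the 26 Tyrobp-high cells also held Col1a1 at 1000 FPKM or more.

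Proteins with a signal peptide enter the ER through the Sec61 channel, lose the signal peptide, and are folded by BiP (Hspa5), its cochaperones, the lectins calnexin and calreticulin, and the disulfide isomerases. Procollagen needs further help, because its prolines must be hydroxylated and isomerized and its triple helix held by a dedicated chaperone, Serpinh1, before large COPII carriers take it to the Golgi. Escaped ER proteins are returned by KDEL receptors in COPI vesicles. When folding falls behind, the unfolded protein response raises much of this machinery through ATF6, XBP1 and ATF4. Fibroblasts that deposit collagen, as in a healing wound, are known for a high secretory load.

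Genes of this response carry short promoter sequences that its factors bind, and promoter stretches holding them are shown because they divide the members in a way that can be set beside the measurements. RefSeq windows of 300 bases (250 before to 50 after the start site, GRCm38.p6) were at hand for 41 of the 51 members. The ER stress element, CCAAT followed by 9 bases of any kind and CCACG, was searched on both strands and stood in 7 of the 41 members (17.1%), Hspa5, Hsp90b1, Dnajc3, Creld2, Pdia6, Calr and Canx, against 37 of 27025 genes with a window (0.137%). In 4 of these members it reads as follows, with the element in capitals and in the direction of transcription.
Hspa5 (chr2:34772015-34772053, + strand): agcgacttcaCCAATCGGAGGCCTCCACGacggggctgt
Calr (chr8:84847065-84847103, - strand): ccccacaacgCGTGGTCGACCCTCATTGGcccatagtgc
Canx (chr11:50325790-50325828, - strand): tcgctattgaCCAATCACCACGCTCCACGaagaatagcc
Pdia6 (chr12:17266481-17266519, + strand): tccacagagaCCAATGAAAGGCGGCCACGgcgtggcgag
In Calr the element lies on the opposite strand.

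The shorter unfolded protein response element, TGACGTGG on either strand, stood in 4 other members (9.76%), all of them vesicle genes, against 0.714% of genes with a window. Its capitals mark the 8 bases, which in Copb1 and Kdelr3 lie on the opposite strand.
Sec23a (chr12:59011994-59012021, - strand): tcctccccttTGACGTGGcagaggcggc
Sec24d (chr3:123267460-123267487, + strand): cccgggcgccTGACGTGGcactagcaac
Copb1 (chr7:114254691-114254718, - strand): ccgcccccttCCACGTCAgccaaggact
Kdelr3 (chr15:79516368-79516395, + strand): ggccgccccgCCACGTCAccgcgcggcc
A second form of the ER stress element (ATTGG, any base, CCACG) stood in Dnajb11 only (2.44% of members against 0.0444% of genes), and the ATF4 composite element (TGATG, any base, AA, any base) in Kdelr1 only (2.44% against 4.5%). No member held more than 1 of the first 3 elements, and over all genes an ER stress element overlapped the shorter element in 2. A match is a description of the letters in the window and no evidence of binding.

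In matrix cells these genes spanned a wide range. The highest was Kdelr2, a KDEL receptor, with a median of 1741 FPKM over cells, followed by Ppib, the cyclophilin of the ER, at 1256 FPKM, Canx at 518, Ssr2 of the translocon-associated complex at 512, Sec61b at 460 and the disulfide isomerase P4hb at 446. Hspa5 was at 319 FPKM. At the other end, Sdf2l1, Dnajb9, Creld2 and Ddit3 had a median of 0, and 34.8% of matrix cells had a value of Ddit3 above 0. The capture means of Kdelr2 were 2433, 2341 and 1567 FPKM on day 12, 990 and 3197 on day 15 and 2630 and 1304 on day 21, while those of Ppib ran from 879 to 1855. The ranges of these neighbours overlapped.

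Summed over the 51 genes, the machinery took a median of 1.62% of the FPKM of a matrix cell, 0.934% of an Rgs5-high cell and 0.552% of a Tyrobp-high cell. The capture medians were 1.46 to 2.00% for matrix, 0.862 to 1.27% for Rgs5-high and 0.464 to 0.817% for Tyrobp-high cells. The ranges of the capture medians of the 3 kinds did not overlap. Per gene, the median share of cells with a value above 0 was 88.9% in matrix, 64.9% in Rgs5-high and 53.8% in Tyrobp-high cells, and 24, 8 and 5 of the 51 genes were detected in over 90% of cells. Tyrobp-high cells had the lowest detection and the most fragments, a median of 1993999 per cell against 1411820 in matrix and 1227316 in Rgs5-high cells, and the median number of detected genes of any kind was 4962, 5808 and 5181 in the same order.

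**Figure D1:**
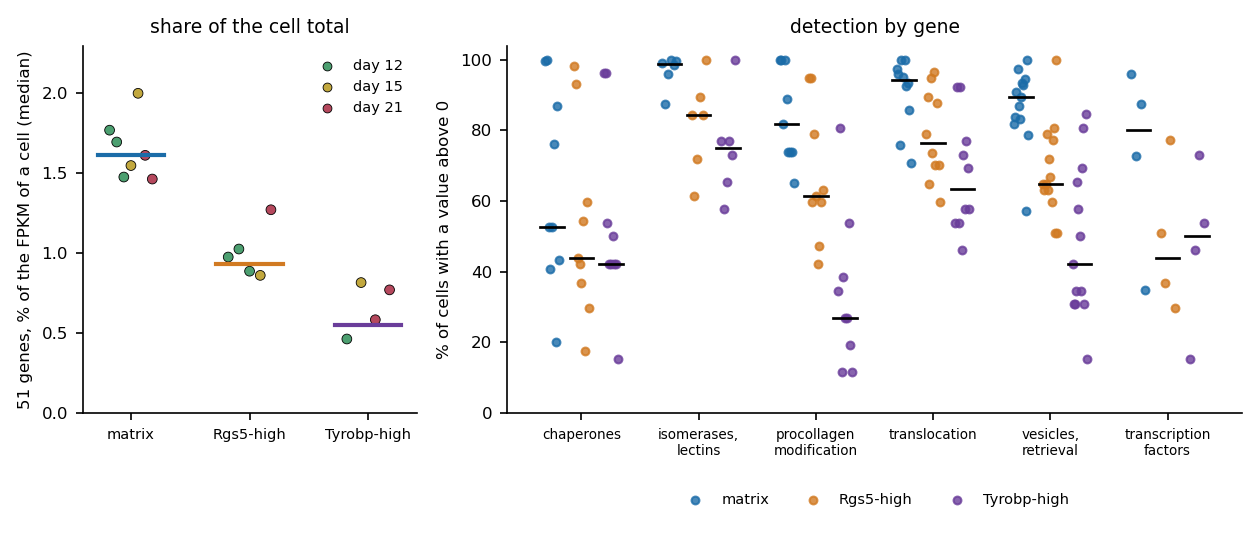
Left, the percentage of a cell's FPKM taken by the 51 genes (median over the cells of a capture, 1 point per capture, colored by day, with the line at the median over all cells of the kind); right, the percentage of cells with a value above 0 for each gene, by role and kind of cell, with black lines at the median. The captures of matrix cells sit between 1.46 and 2.00%, above all captures of the other kinds.

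Matrix cells were compared with Tyrobp-high cells first, in the 4 captures that held at least 3 of both (captures 2 of day 12, 2 of day 15, and 1 and 2 of day 21, listed in this order below). Of the 51 members, 47 were higher in matrix cells (44 to 49 when the cells were scaled in 3 other ways), next to 71.7% of all genes. The median difference was 2.13 on the log2(FPKM + 1) scale, against a median of 1.00 over all 13059 genes tested. This scale understates the change of low genes. With limma and a capture block, 9 members passed an adjusted p of 0.05, all higher in matrix cells, which is 9 of 51 where 4.9% of all genes passed in this direction and 6.59% in either. The 9 members fell on procollagen modification (4 of 9), vesicle transport and retrieval (3 of 13), translocation (1 of 10) and the transcription factors (1 of 4). With limma 0 of 9 chaperones and 0 of 6 isomerases and lectins passed. An unadjusted p under 0.05 was reached by 0 of these chaperones and 3 of these isomerases and lectins, next to 27.5% of all genes. The Tyrobp-high means rest on 11, 4, 5 and 3 cells. Median differences by role were 3.86 for procollagen modification, 2.35 for vesicles and retrieval, 2.02 for translocation, 1.2 for isomerases and lectins, 1.14 for chaperones and 1.01 for transcription factors.

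**Figure D2:**
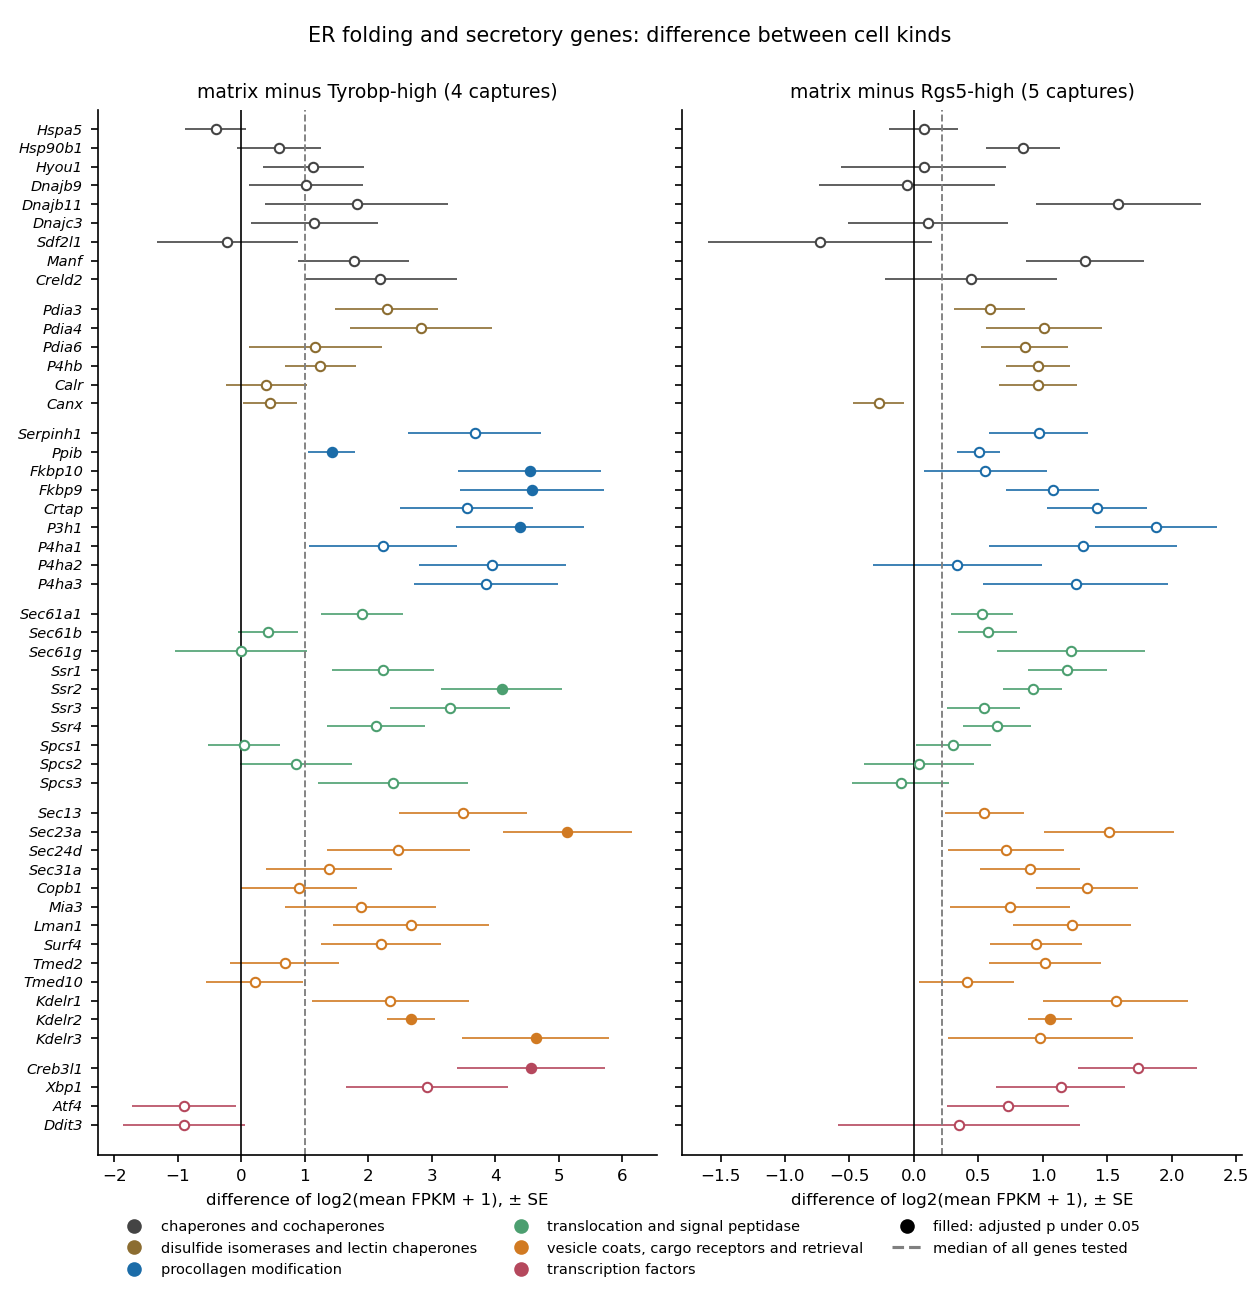
Log2 difference in mean FPKM + 1 with its standard error for each of the 51 genes, matrix minus Tyrobp-high cells (4 captures) and matrix minus Rgs5-high cells (5 captures); color is the role, filled points passed an adjusted p of 0.05, and dashed lines mark the median of all genes tested (1.00 and 0.22). The procollagen genes lie to the right in the first panel, and only Kdelr2 is filled in the second.

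Among the procollagen modifiers, the prolyl 3-hydroxylase P3h1 averaged 86.6, 188, 94.3 and 43.2 FPKM in matrix cells and 7.03, 7.47, 1.94 and 0.787 FPKM in Tyrobp-high cells. The groups did not overlap, and the difference was 4.39 ± 1.01 (SE, adjusted p = 0.033). Ppib, which forms a complex with P3h1 and Crtap, was at 1161, 1855, 879 and 1437 FPKM against 426, 514, 564 and 424, a difference of 1.42 ± 0.37 (adjusted p = 0.046). It was thus abundant in both kinds and higher in matrix cells in each capture. The peptidyl-prolyl isomerase Fkbp9 was at 147, 221, 228 and 234 FPKM against 3.72, 43.2, 25.1 and 0 (4.58 ± 1.13, adjusted p = 0.040), and the collagen chaperone Fkbp10 at 86.0, 107, 61 and 99.2 against 13.8, 12.3, 0 and 0 (4.54 ± 1.13, adjusted p = 0.040). For both, the matrix captures lay above every Tyrobp-high capture, and the size of the difference rests in part on captures listed at 0.

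Other members of this group had differences of similar size that did not pass. The collagen chaperone Serpinh1 was at 102, 209, 112 and 157 FPKM in matrix cells and 7.67, 40.2, 16 and 1.38 FPKM in Tyrobp-high cells, a difference of 3.68 ± 1.04 (adjusted p = 0.056). The groups did not overlap. Just beyond the threshold as well were Crtap (3.55, adjusted p = 0.062) and the prolyl 4-hydroxylase subunits P4ha2 (3.96, adjusted p = 0.061) and P4ha3 (3.86, adjusted p = 0.061). The third subunit, P4ha1, differed by 2.23 ± 1.16 (adjusted p = 0.24), with 48.1, 40.6, 44.7 and 43.8 FPKM in matrix cells against 87.4, 10.9, 2.97 and 1.05. Its mean was higher in the Tyrobp-high cells of the first of these captures and lower in those of the other 3. The highest single Tyrobp-high cell held 808 FPKM of P4ha1, and the median over all 26 Tyrobp-high cells was 0.38.

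In retrieval and vesicle transport, Kdelr2 was at 2341, 3197, 2630 and 1304 FPKM in matrix cells and 332, 1080, 288 and 146 FPKM in Tyrobp-high cells. In these 4 captures all matrix means were above all Tyrobp-high means, and the difference was 2.68 ± 0.38 (adjusted p = 0.0035), the smallest p of the members. Its relative Kdelr3 was far lower in both, at 151, 132, 124 and 123 FPKM against 8.80, 1.13, 38.2 and 0 (4.64 ± 1.15, adjusted p = 0.040). Sec23a, of the inner COPII coat, had the largest difference, with 61.2, 73.8, 98.6 and 46.8 FPKM against 0.538, 3.73, 0.020 and 0.957 (5.14 ± 1.02, adjusted p = 0.022). No Tyrobp-high capture reached the lowest matrix capture for either gene. Sec13 of the outer coat (3.49, adjusted p = 0.059) missed the threshold narrowly, and the other 9 vesicle members differed by 0.21 (Tmed10, a p24 cargo adaptor) to 2.68 (Lman1, a lectin cargo receptor). Mia3, which loads procollagen into carriers, was at 94.3, 141, 58.8 and 80.1 FPKM against 88.4, 33.4, 86.7 and 0.327, and the groups overlapped (1.88 ± 1.19, adjusted p = 0.33).

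Of the translocation genes, Ssr2 passed, with 514, 809, 506 and 662 FPKM in matrix cells and 80.3, 205, 27.7 and 2.31 FPKM in Tyrobp-high cells (4.11 ± 0.95, adjusted p = 0.033). The groups did not overlap. Its partners in the complex at the channel were also above 0 without passing, Ssr3 at 3.29 (adjusted p = 0.058), Ssr1 at 2.23 and Ssr4 at 2.13. Sec61b, a channel subunit, was at 563, 1015, 326 and 540 FPKM against 224, 740, 340 and 553, with overlapping groups and a difference of 0.42 ± 0.47 (adjusted p = 0.57). Sec61a1, another channel subunit, was higher in matrix cells in 4 of 4 captures, without overlap. Its difference of 1.91 did not pass. With log2 values averaged over cells, Sec61a1 passed with limma (4.36, adjusted p = 0.0042). The small subunit Sec61g and the signal peptidase subunit Spcs1 had differences of 0.00 and 0.05. Spcs2 and Spcs3, of the same peptidase, differed by 0.86 and 2.39 without passing.

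Among the chaperones, isomerases and lectins, sizes varied from member to member. Hspa5 was at 540, 323, 210 and 759 FPKM in matrix cells and 466, 315, 504 and 1158 FPKM in Tyrobp-high cells, higher in matrix in 2 of 4 captures (-0.41 ± 0.47, adjusted p = 0.59). The groups overlapped. The ER Hsp90 paralog Hsp90b1 was at 370, 302, 214 and 281 FPKM against 78.2, 272, 141 and 424 (0.60 ± 0.67, adjusted p = 0.57), and Calr at 309, 208, 165 and 315 against 205, 94.0, 155 and 370 (0.40 ± 0.64, adjusted p = 0.70). Both overlapped, as did Canx (0.46 ± 0.43, adjusted p = 0.50). P4hb, which is both a disulfide isomerase and the beta subunit of prolyl 4-hydroxylase, was at 542, 478, 380 and 511 FPKM against 138, 341, 119 and 284, without overlap (1.24 ± 0.56, adjusted p = 0.18). The secreted ER protein Manf was at 266, 329, 165 and 212 FPKM against 46.5, 24.1, 52 and 364 (1.77 ± 0.88, adjusted p = 0.22), with the Tyrobp-high cells of the last capture above every matrix value. The other chaperones ran from -0.22 (Sdf2l1) to 2.19 (Creld2) and the other isomerases, Pdia3, Pdia4 and Pdia6, from 1.17 to 2.83 (Pdia4).

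Creb3l1, a membrane-bound factor known from collagen-producing bone cells, was the transcription factor that passed, with 94.5, 128, 77.4 and 122 FPKM in matrix cells and 13.2, 25.6, 0 and 0 in Tyrobp-high cells (4.56 ± 1.17, adjusted p = 0.044). The groups did not overlap. Atf4 and Ddit3, which act in the integrated stress response, were on the other side of 0 without passing. Atf4 was at 83, 79.7, 67.4 and 189 FPKM in matrix cells against 211, 34.2, 309 and 463 (-0.90 ± 0.81, adjusted p = 0.49), and Ddit3 at 83.4, 19.8, 31.8 and 30.2 against 62.3, 26.3, 136 and 91.6 (-0.90 ± 0.96, adjusted p = 0.55). Xbp1 was at 44.8, 44.2, 69.9 and 65.4 FPKM against 16, 0.29, 0.218 and 109, with overlapping groups (2.92 ± 1.28, adjusted p = 0.16).

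Set beside the promoter sequences above, the 7 members with an ER stress element had differences of -0.41 to 2.19 with a median of 0.60, and 0 of them passed with limma or had an unadjusted p under 0.05. The 4 with TGACGTGG had differences of 0.90 (Copb1) to 5.14 (Sec23a) with a median of 3.56. Of these, 2 passed and 2 had an unadjusted p under 0.05. The 29 members whose window held none of the 3 response elements had a median of 2.2. Of these, 3 passed and 16 had an unadjusted p under 0.05. Of the 9 members that passed, 4 (Kdelr2, Creb3l1, Fkbp10 and Ssr2) are among the 10 without a window and enter none of these groups. Over all genes tested the median was 1.00, 4.9% passed higher in matrix cells, and 27.5% had an unadjusted p under 0.05 in either direction. The 7 members are all chaperones, isomerases or lectins and the 4 all vesicle genes, so promoter group and role cannot be told apart. These numbers were not tested against each other.

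The number of members that passed rested on every capture. It was 1 without capture 2 of day 12, 2 without capture 2 of day 15, 1 without capture 1 of day 21 and 2 without capture 2 of day 21, and 1 when only the 2 captures with at least 5 cells of both kinds were used. Kdelr2 kept its call in 15 of 17 alternative settings, Sec23a in 13, P3h1 in 10, Fkbp10, Ssr2, Kdelr3 and Creb3l1 in 8, and Ppib and Fkbp9 in 7, and all 9 members kept their direction in every setting run. When log2 values were averaged over cells, so that a few high cells weigh less, 21 members passed higher in matrix cells, 8 of the 9 procollagen modifiers among them, against 5.18% of all genes. With the 4 Tyrobp-high cells that also held Col1a1 set aside, 14 members passed, against 9.02% of all genes. Serpinh1, P4ha2, P4ha3, Crtap and Ssr3 were among them, and Kdelr2 differed by 5.83 ± 1.40 (adjusted p = 0.034).

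**Figure D3:**
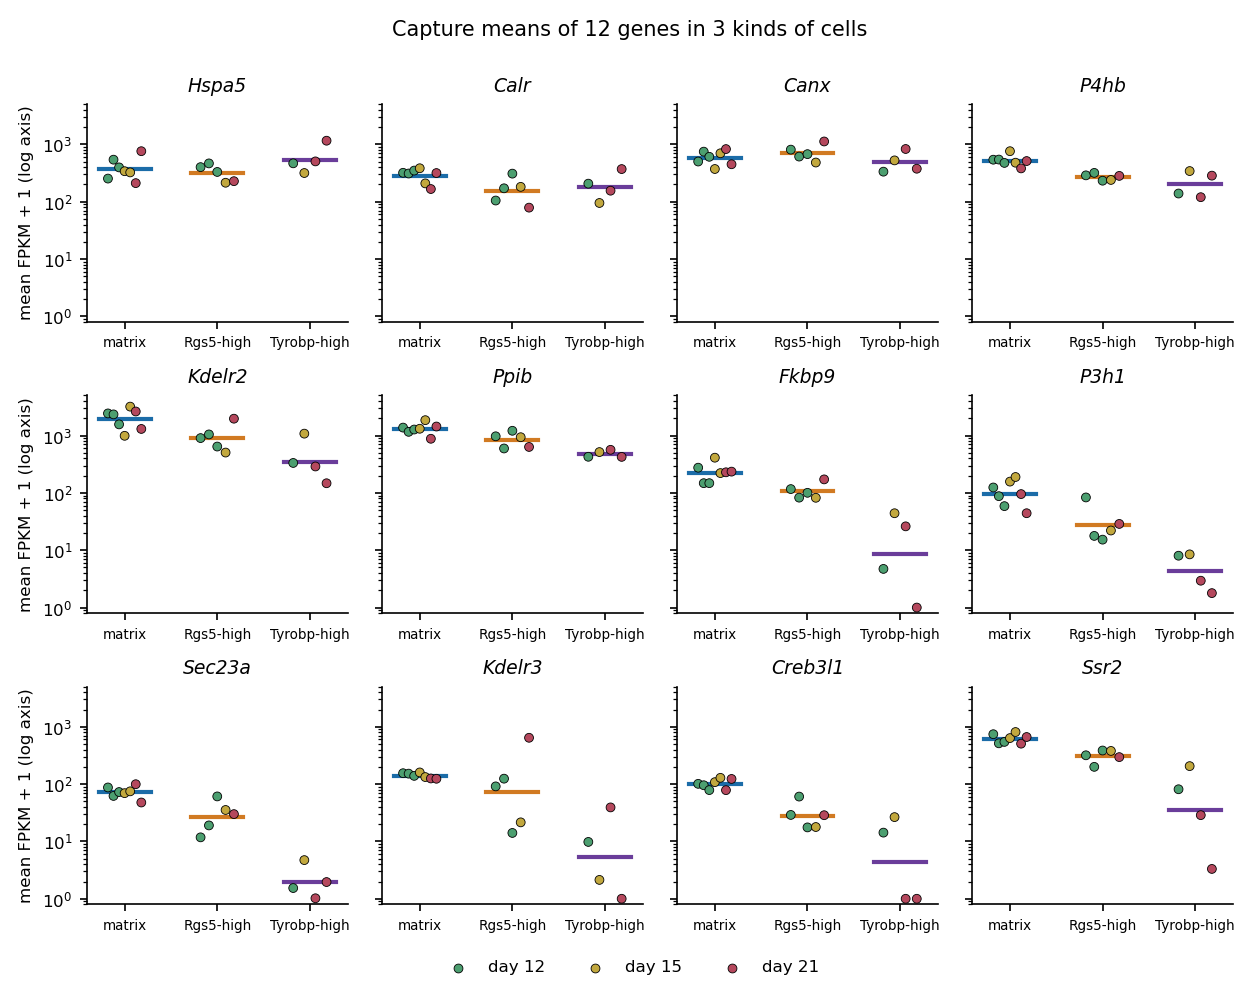
Mean FPKM + 1 (log axis) of 12 genes in each capture with at least 3 cells of the kind, for matrix, Rgs5-high and Tyrobp-high cells; points are captures colored by day and lines the mean of the log values. P3h1, Sec23a and Creb3l1 separate all matrix from all Tyrobp-high captures, and Hspa5, Calr and Canx overlap. Kdelr2 separates only in the 4 captures compared. Its lowest matrix capture (990 FPKM, capture 1 of day 15) lies below the highest Tyrobp-high capture (1080 FPKM).

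Between matrix and Rgs5-high cells, compared in 5 captures (the 3 of day 12, capture 1 of day 15 and capture 1 of day 21, in this order), the direction was the same for most members and the sizes were smaller. Again 47 of 51 were higher in matrix cells (43 to 49 with the other scalings), next to 58.9% of all genes. The median of the members was 0.86, against 0.22 over 13823 genes. Only Kdelr2 passed the test, where 0.76% of genes passed higher in matrix cells and 1.71% in either direction. An unadjusted p under 0.05 was reached by 26 members, all higher in matrix cells, against 9.52% of all genes in that direction. Medians by role were 1.07 for procollagen modification, 0.98 for vesicles and retrieval, 0.93 for transcription factors, 0.91 for isomerases and lectins, 0.56 for translocation and 0.11 for chaperones.

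Kdelr2 was at 2433, 2341, 1567, 990 and 2630 FPKM in matrix cells and 903, 1046, 643, 505 and 1969 FPKM in Rgs5-high cells. It was higher in matrix cells within each of the 5 captures although the ranges of the groups overlapped (1.05 ± 0.17, adjusted p = 0.014). The call was lost when any of the day 12 captures or the capture block was left out. Ssr2 was at 741, 514, 544, 634 and 506 FPKM against 317, 199, 384, 378 and 295 (0.92 ± 0.23, adjusted p = 0.082) and P4hb at 539, 542, 474, 759 and 380 against 287, 317, 231, 239 and 281 (0.96 ± 0.25, adjusted p = 0.095). Neither overlapped, and neither passed. Creb3l1 was at 100, 94.5, 77.6, 107 and 77.4 FPKM against 28, 59.6, 16.6, 16.8 and 27.7, also without overlap (1.73 ± 0.46, adjusted p = 0.11).

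P3h1 had the largest difference, with 123, 86.6, 57.8, 156 and 94.3 FPKM in matrix cells against 82.3, 16.8, 14.3, 21.1 and 27.8 (1.88 ± 0.47, adjusted p = 0.087), and its partner Crtap differed by 1.42 ± 0.39 (adjusted p = 0.12). Both were higher in matrix cells in 5 of 5 captures. Serpinh1 was at 121, 102, 84.8, 231 and 112 FPKM against 45.8, 30.6, 64.5, 139 and 71.8 (0.97 ± 0.38, adjusted p = 0.28), and Ppib at 1376, 1161, 1274, 1314 and 879 against 970, 595, 1211, 935 and 632 (0.50 ± 0.17, adjusted p = 0.21). The groups overlapped for both, with matrix cells higher within each capture.

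Hspa5 again did not separate the kinds, at 252, 540, 396, 339 and 210 FPKM in matrix cells and 400, 465, 329, 213 and 227 FPKM in Rgs5-high cells (0.07 ± 0.27, adjusted p = 0.93). Canx was at 501, 746, 606, 371 and 827 FPKM against 809, 611, 674, 481 and 1122, higher in Rgs5-high cells in 4 of 5 captures without passing (-0.27 ± 0.20, adjusted p = 0.59). Calr (0.96 ± 0.30, adjusted p = 0.17), Hsp90b1 (0.85 ± 0.29, adjusted p = 0.21), Manf (1.32 ± 0.46, adjusted p = 0.21), Sec61b (0.57 ± 0.23, adjusted p = 0.28) and Ssr4 (0.65 ± 0.26, adjusted p = 0.29) were above 0. The 3 prolyl 4-hydroxylase alpha subunits differed by 0.34 (P4ha2) to 1.31 (P4ha1), Mia3 by 0.75, Kdelr3 by 0.98, Xbp1 by 1.14, Atf4 by 0.73 and Ddit3 by 0.35, and the smallest adjusted p of these 8 was 0.34. Besides Canx, the members below 0 were Spcs3 (-0.10), Dnajb9 (-0.05) and Sdf2l1 (-0.73).

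This comparison depended most on how cells were averaged. With log2 values averaged over cells, 20 members passed, all higher in matrix cells, against 2.66% of all genes, and they included 7 of 13 vesicle genes, 4 each of the isomerases and lectins, the procollagen modifiers and the translocation genes, and Creb3l1 (2.85 ± 0.47, adjusted p = 0.0019). With the 19 Rgs5-high cells that also held Col1a1 set aside, 3 passed, against 3.5% of all genes, namely Kdelr2 (1.74 ± 0.22, adjusted p = 0.0023), Creb3l1 (4.5 ± 0.92, adjusted p = 0.020) and the cochaperone Dnajb11 (3.82 ± 0.84, adjusted p = 0.029). The median over the members was then 1.63, against 0.72 over all genes.

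Rgs5-high and Tyrobp-high cells could be compared in 2 captures only (capture 2 of day 12 and capture 1 of day 21), with 1 residual degree of freedom. With limma 0 of 51 members passed, where 2.55% of all genes did. An unadjusted p under 0.05 was reached by 9 of 51, next to 12.6% of all genes. Of these 9, 8 were higher in Rgs5-high cells, next to 7.75% of all genes in that direction. The median difference was 1.21, against 0.56 over all genes. Kdelr2 was at 1046 and 1969 FPKM in Rgs5-high cells and 332 and 288 FPKM in Tyrobp-high cells (2.21 ± 0.77, adjusted p = 0.11), and Kdelr3 at 123 and 642 against 8.80 and 38.2 (3.85 ± 1.38, adjusted p = 0.12). The 642 is a mean over 8 cells. The highest single Rgs5-high cell held 4096 FPKM of Kdelr3, and the median over all 57 Rgs5-high cells was 0.45. The lower member with an unadjusted p under 0.05 was Ddit3, at 37.4 and 0.0862 FPKM against 62.3 and 136 (-3.85 ± 1.64, adjusted p = 0.24). With log2 values averaged over cells, 10 members passed higher in Rgs5-high cells, against 4.15% of all genes.

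Across days, the matrix cells of the 7 captures were compared to ask whether the machinery changed while the wound closed and entered its later phase. With limma 0 of 51 members passed in any of the 3 pairs of days, where 0% of the 13552 genes passed between days 12 and 15, 0.00738% (1 gene) between days 12 and 21 and 0% between days 15 and 21. An unadjusted p under 0.05 was reached by 2, 3 and 2 members, and by 791, 968 and 745 of all genes. The median differences of the members were -0.14, -0.16 and -0.22 (later minus earlier day), next to -0.10, -0.19 and -0.05 over all genes.

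Of the 9 procollagen modifiers, 8 were above 0 from day 12 to day 15, with a median of 0.85, next to 44.4% of all genes above 0. From day 15 to day 21, 8 of 9 were below 0, with a median of -0.47, next to 46.5% of all genes above 0. Both comparisons use the captures of day 15. Serpinh1 was at 121, 102 and 84.8 FPKM on day 12, 231 and 209 on day 15, and 112 and 157 on day 21. Both day 15 captures lay above all others, yet the difference from day 12 did not pass (1.11 ± 0.39, adjusted p = 0.74). P4ha2 was at 121, 68.3 and 38.8, then 161 and 202, then 161 and 145 FPKM (1.38 ± 0.50, adjusted p = 0.76, from day 12 to 15). P3h1 was at 123, 86.6 and 57.8, then 156 and 188, then 94.3 and 43.2 FPKM, a difference of -1.41 ± 0.55 from day 15 to day 21 (adjusted p = 0.84).

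All 6 isomerases and lectins were below 0 from day 12 to day 21, with a median of -0.47. Pdia4 was at 168, 151 and 109 FPKM on day 12, 148 and 67.7 on day 15, and 35.6 and 72 on day 21 (-1.45 ± 0.51, adjusted p = 0.58, from day 12 to 21), and Pdia6 at 219, 290 and 243, then 250 and 161, then 89.9 and 170 FPKM (-1.01 ± 0.41, adjusted p = 0.67). For both, each day 21 capture was below each day 12 capture. With log2 values averaged over cells, Pdia4 differed by -2.67 between days 12 and 21 and passed (adjusted p = 0.047), as the single member to do so, where 0.517% of all genes passed in either direction. Hspa5 was at 252, 540 and 396 FPKM on day 12, 339 and 323 on day 15 and 210 and 759 on day 21, with overlap among all days. Kdelr2, Creb3l1, Kdelr3 and Sec23a differed by at most 0.37 between any 2 days.

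**Figure D4:**
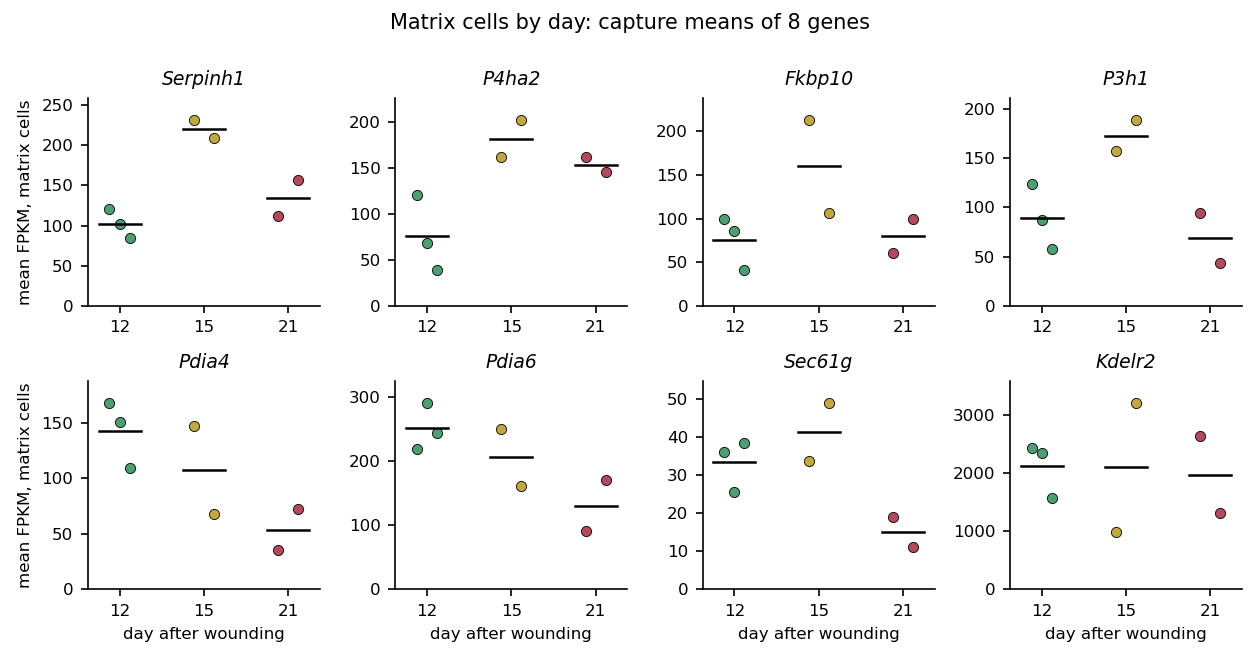
Mean FPKM over the matrix cells of each capture (1 point per capture, lines at the mean of a day) for 8 genes by day after wounding. Both day 15 captures of Serpinh1 lie above the captures of the other days, and both day 21 captures of Pdia4 and Pdia6 lie below those of day 12.

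Within matrix cells, Col1a1 was used as a measure of collagen message, and the members were compared between the cells above and those at or below the median Col1a1 of their own capture. With limma 0 of 51 members passed, where 0.0221% of genes (3 of 13552) did, and 6 had an unadjusted p under 0.05, against 1079 of all genes. Col1a1 was itself among the genes tested, and its difference was fixed by the split. The members were split evenly, 27 above and 24 below 0, with a median of 0.01, next to -0.12 over all genes. Of the 51 members, 22 were above 0 with log2 values averaged over cells and 36 with median-of-ratios size factors. The procollagen modifiers again stood on one side, with 9 of 9 above 0 and a median of 0.51, next to 42.1% of all genes above 0. Fkbp9 was higher in the Col1a1-high cells of 6 of 7 captures (0.51 ± 0.22, adjusted p = 0.61), and Serpinh1 in 7 of 7 (0.44 ± 0.23, adjusted p = 0.67). For scale, the cargo genes Col1a2 and Sparc, which are no members, passed at 0.74 and 0.51.

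Hspa5 (0.00 ± 0.16, adjusted p = 1.0), Hsp90b1 (-0.06), P4hb (0.05), Sec61b (0.01), Kdelr2 (0.14), Mia3 (-0.05) and Creb3l1 (0.11) differed little between Col1a1-high and Col1a1-low cells. Differences of larger size that did not pass were Sdf2l1 at 1.56 (higher in 7 of 7 captures, adjusted p = 0.61), Dnajb9 at -1.37 (adjusted p = 0.61), Hyou1 at -1.2 (adjusted p = 0.62), Creld2 at 1.06 (adjusted p = 0.64) and the signal peptidase subunit Spcs3 at -1.0 (adjusted p = 0.55), the last lower in 6 of 7 captures.

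The rank correlation with Col1a1 over the matrix cells of a capture (17 to 50 cells, which share a chip, a pool and a scaling to the same total) gave a like picture. As a description without a test, its median over captures had a median of -0.038 over the members and -0.036 over 13583 genes. Procollagen modification had the highest median of the 6 roles, 0.128, with Crtap at 0.297, Fkbp9 at 0.213, positive in 7 of 7 captures, and Serpinh1 at 0.198. Translocation had the lowest, -0.103, with Ssr2 the exception at 0.190. Canx was at -0.106 and negative in 7 of 7 captures. The 6 reference cargo genes had a median of 0.334, with Col1a2 at 0.872. Col1a1 itself ran against the number of detected genes, with a median rho of -0.269. Given the number of detected genes, the median partial correlation was -0.0144 over the members, -0.00217 over all genes and 0.154 for procollagen modification, and with limma 0 of 51 members passed when the cells were split by Col1a1 given that number, with 4 at an unadjusted p under 0.05. The summed level of the 51 genes followed Col1a1 in capture 2 of day 21 (0.670 over 34 cells) and in none of the others (-0.296 to 0.0434).

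**Figure D5:**
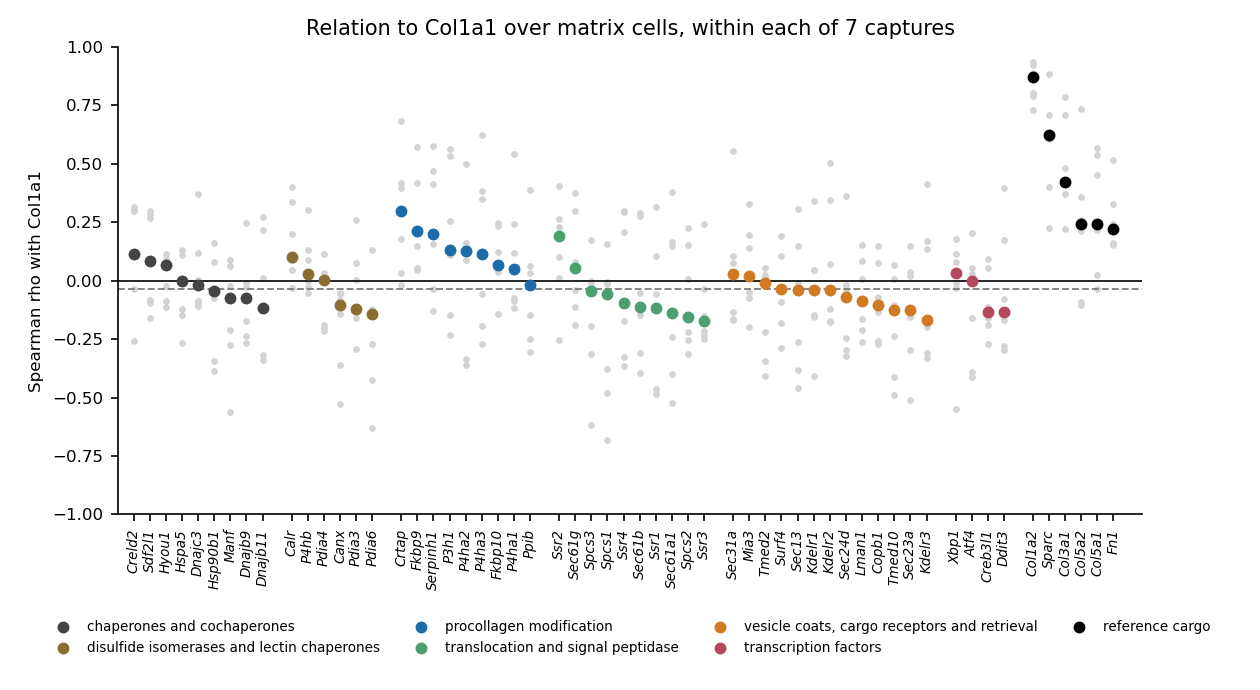
Spearman rho between Col1a1 and each gene over the matrix cells of a capture, by role; grey points are the 7 captures, colored points their median, black points 6 reference cargo genes, and the dashed line the median of 13583 genes (-0.036). Procollagen genes sit mostly above 0 and other roles around or below it, while single captures scatter widely around each median.

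Among themselves the members were only loosely related over matrix cells. The median rank correlation of the 1275 pairs was 0.0642, against 0.017 over all pairs of genes, and the highest was that of Ssr1 with Kdelr2 (0.368). These are weak values in single cells, given as a description.

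Ddit3 and Sdf2l1 were carried by few cells, and Atf4, Xbp1 and Hspa5 by more. With 100 FPKM as a limit, chosen after the values were seen, Ddit3 was above it in 22 of 198 matrix cells (11.1%, exact 95% interval 7.10 to 16.3), 11 of 57 Rgs5-high cells (19.3%, 10.0 to 31.9) and 7 of 26 Tyrobp-high cells (26.9%, 11.6 to 47.8). The intervals cover counting error only, and they overlap. In matrix cells the 10% of cells highest for Ddit3 held 81.5% of its summed FPKM, against 61.3% for Xbp1, 52.1% for Atf4 and 32.3% for Hspa5, and 62.6% for P4ha3, which is no stress gene. Atf4 was above 100 FPKM in 29.3% of matrix, 12.3% of Rgs5-high and 50% of Tyrobp-high cells, and Xbp1 in 18.7, 10.5 and 3.85%. In the 22 Ddit3-high matrix cells, pooled over captures, Hspa5 had a median of 428 FPKM against 311 in the other 176. The degradation factor Herpud1 had a median of 32.1 against 12.9. Their means were 526 against 402 FPKM for Hspa5 and 166 against 144 for Herpud1. The means of Xbp1 (33.1 against 63.4) and Sdf2l1 (0.253 against 6.26) were lower in the Ddit3-high cells. Atf4 (32 against 39.1 FPKM), Xbp1 (5.85 against 5.18) and Ppp1r15a (47.4 against 49.3) had similar medians in both, and Sdf2l1, Atf3, Asns, Trib3 and Chac1 had medians of 0 in both. These values are a description without a test. The Sdf2l1 of Rgs5-high cells was nearly all in 1 cell, at 2559 FPKM.

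Other genes of the same pathways, taken from a list of stress sensors and targets, ER-associated degradation, glycan transfer, redox, signal recognition, vesicle coats and collagen modification, were counted beside the members. Between matrix and Tyrobp-high cells 10 of 66 passed higher in matrix cells, where 4.9% of all genes did, and 1 lower. The former were led by the ER prolyl isomerases Fkbp7 (5.83), Fkbp11 (5.71) and Fkbp14 (5.49), the isomerase Pdia5 (5.44) and the COPI subunit Copg1 (4.68), and the latter was Atf3, a stress-induced factor (-5.16). Between matrix and Rgs5-high cells 2 of 66 passed, Txndc5, a disulfide isomerase (2.33), and Fkbp11 (1.95), both higher in matrix cells, where 0.76% of all genes passed. Between Rgs5-high and Tyrobp-high cells it was 1 of 64, Fkbp7 (5.30), higher in Rgs5-high cells, which is below the 2.55% of all genes. With limma 0 of 67 passed between days or between Col1a1-high and Col1a1-low cells, where 0, 5, 3 and 3 had an unadjusted p under 0.05, next to 5.84, 7.14, 5.5 and 7.96% of all genes.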

How the data were processed

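The authors aligned the paired-end reads with Bowtie 1.0.0 to mm10, estimated levels by RSEM (GENCODE mouse release 13), and deposited 1 table of FPKM per capture. The files hold no counts, so a count test was not run, and depth was estimated per cell from the steps between FPKM values of 9426 single-transcript genes, with an assumed fragment length of 200 bp. Symbols came from GENCODE M21, which holds 50376 of the 50600 gene identifiers (224 had no record).

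Filters on cells were a minimum of 159000 estimated fragments, a maximum of 11000 detected genes and a mitochondrial share of FPKM no higher than 15%. They left out 75 cells, of which 27 were below the fragment minimum (3 of these had no depth estimate), 51 over the mitochondrial limit and 1 over the gene limit, and 4 failed more than 1 filter. No doublet caller was run. Kinds of cells were set by the gates on Col1a1, Rgs5 and Tyrobp, and 3 matrix cells lay between 1000 and 2000 FPKM of Col1a1 and 3 Rgs5-high cells between 500 and 1000 FPKM of Rgs5.

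FPKM was averaged over the cells of a kind in each capture (at least 3 cells), and log2(mean + 1) was compared with limma 3.58.1 in R 4.3.3, with a variance trend, two-sided, for genes averaging 1 FPKM or more, with Benjamini-Hochberg adjustment over all genes tested and a threshold of 0.05. The capture entered as a block between kinds and between Col1a1-high and Col1a1-low cells, and the day as a factor between days. Scripts were tested on simulated data. Correlations were computed within captures. Promoter windows were RefSeq (GRCm38.p6).

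All 51 members are accounted for. Those in full are Hspa5, Hsp90b1, P4hb, Calr, Serpinh1, Ppib, P4ha1, P4ha2, P4ha3, Sec61b, Ssr4, Mia3, Creb3l1, Xbp1, Atf4, Ddit3, Manf, Kdelr2, Kdelr3 and up to 10 members per comparison past the threshold. Other pathway genes past the threshold are named up to 5 per comparison, and other members were named after their values were seen. The members and lists were chosen with earlier results of these data known. Alternatives were no cell filter, TPM, rescaling without collagen and mitochondrial genes, median-of-ratios size factors, pseudocounts of 0.1 and 10, no filter on low values, means of log2 values over cells, no variance trend, the block, at least 5 cells, stricter gates and each capture left out. Setting aside cells with Col1a1 in the other gates was added after seeing the data. Other steps used scipy 1.17.1, pandas 2.3.3, numpy 2.4.6 and matplotlib 3.10.9 under Python 3.11.15.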

Additional observations from a re-analysis of the deposited data

Results flagged for a closer look

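The difference between Col1a1-high and Col1a1-low matrix cells pointed opposite ways on different days for 2 members. For Hsp90b1 it was below 0 in every day 12 capture and above 0 in every day 21 capture, with means of -0.38 and 0.24, a gap of -0.62 on the log2 scale (day 12 minus day 21). For Manf it was below 0 in both day 15 captures and above 0 in both day 21 captures, with means of -1.04 and 0.17 and a gap of -1.21 (day 15 minus day 21). Neither difference between days was tested. The 2 members were picked for this pattern of signs, and the share of all genes that show it was not determined. With so few captures per day, signs can split in this way by chance, so no change between days is concluded for either member. In the 62 groups of capture differences that were large enough to be examined, 0 held a capture that stood apart from the others by Dixon's criterion.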

How the results depend on the processing

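The member counts of the comparisons between kinds moved with most choices, while the members past the threshold kept their direction. Of the values recomputed for single members and medians, none past the threshold in either setting changed sign, 2277 stayed, 123 moved by more than a standard error, 75 lost and 30 gained the threshold. A member past the threshold in both settings counted as having stayed, whatever the change in its size. Between matrix and Tyrobp-high cells, where 9 members passed, 4 did without the cell filter, 15 with TPM, 16 after rescaling without collagen and mitochondrial genes, 2 with median-of-ratios size factors, 3 with a pseudocount of 10, 0 without the filter on low values (limma, 22 with an unadjusted p under 0.05), 21 with means of log2 values over cells, 1 with at least 5 cells of both kinds, 14 without the Col1a1-positive cells of the other gates, and 1 to 2 with a capture left out. Between matrix and Rgs5-high cells, where 1 passed, 2 did after the rescaling, 20 with means of log2 values, 3 without the Col1a1-positive cells, 0 without the filter on low values, without the variance trend or without the capture block (limma, 27, 11 and 21 with an unadjusted p under 0.05), and 0 to 1 with a capture left out. Between Rgs5-high and Tyrobp-high cells, where 0 passed, 1 did with TPM, after the rescaling, with a pseudocount of 0.1 or without the filter on low values, 10 with means of log2 values and 2 without the Col1a1-positive cells. Leaving out a capture there would leave 1, so that it was not run. Between days 12 and 21, 1 passed with means of log2 values. In the other comparisons 0 passed in every setting. The causes were not tested.

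The scalings moved the median over all genes between matrix and Tyrobp-high cells from 1.00 to 0.78 (size factors), 1.2 (TPM) and 1.23 (rescaling), and between matrix and Rgs5-high cells from 0.22 to 0.11, 0.32 and 0.35. The median correlation of the members with Col1a1 was -0.0378, -0.0144 given the number of detected genes, 0.0121 after the rescaling, -0.00351 without the cell filter and -0.0738 to -0.0160 with a capture left out. Captures of different days share only a replicate number. Their deviations correlated by -0.00685 to 0.0250, so that no pairing was assumed, and a replicate block on them left 0 members past the threshold in each pair of days. Without the capture block 10 members passed between matrix and Tyrobp-high cells. Small numbers of Tyrobp-high cells per capture, and genes detected in few cells, limit what these tests can resolve.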
